A study of Homo sapiens with 12 samples.

Results

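The HOX, SOX, PAX, LHX and GATA genes are families of transcription factors that set regional and lineage identity in the embryo. They were taken as all genes whose symbol in the array's annotation was HOXA, HOXB, HOXC, HOXD, SOX, PAX, LHX or GATA followed by a number. The rule used names and no measured value, and it found 71 genes of the 13881 on the table, read by 79 probes. They comprised 10 HOXA, 10 HOXB, 6 HOXC, 7 HOXD, 17 SOX, 7 PAX, 8 LHX and 6 GATA genes. Each gene was represented by its brightest probe, and all 71 were tested, because no filter on low values was applied. The cells carry the label HepG2, the name of a human liver cancer line, and gave total RNA that was labelled with Cy5 and read on one-colour arrays. The cells had been given 25 µM of the liquorice saponin glycyrrhizin, the milk thistle extract silymarin or the bile acid ursodeoxycholic acid, or a mock treatment as control, with 3 arrays for each of the 4 groups. The labels give neither a treatment time nor the solvent of the agents, and they do not state whether a group's arrays stand for separate cultures, so every p-value below measures array-to-array spread, which may be only technical.

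HOX genes lie in 4 clusters, and their order along a cluster matches the order of the body regions they pattern, with low numbers acting towards the head and high numbers towards the tail. The roles given for single HOX genes come largely from the mouse. SOX proteins bind DNA through an HMG box, PAX proteins through a paired domain, LHX proteins through a homeodomain joined to LIM domains, and GATA proteins through zinc fingers. In the liver lineage, GATA4, GATA6 and SOX17 act in the endoderm, SOX9 in bile duct cells and, in the mouse, LHX2 in stellate cells. GATA2 and GATA3 are factors of sympathetic neuroblasts and blood, SOX10 of the neural crest, PAX2 and PAX8 of the kidney, and SOX2 of pluripotent and neural stem cells.

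Values are log2 intensities. The authors deposited linear intensities, and the medians of the 12 arrays lay close together, at 85.8 to 86.6. The median gene lay at 6.70, and the brightest 25% of genes began at 8.27. The median correlation was 0.945 between arrays sharing a group and 0.946 between arrays that did not, over genes that do not count as independent replicates. Probes differ in how well they bind, and no detection call came with the values used here. A level is therefore given as the brightness of a probe and its place among all genes, without ranking transcripts by amount, and dim signals may be background.

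The hepatic label was set against marker lists first. Of 16 measured products of hepatocytes and hepatoma cells, 7 lay above the median gene and 1 in the brightest 25%. The brightest were the apolipoprotein APOB at 8.89, the thyroid hormone carrier TTR at 7.77 and the apolipoprotein APOA1 at 7.66, the dimmest was the apolipoprotein APOH at 3.55, and the fetal serum protein AFP averaged 6.89. Of 13 measured hepatocyte transcription factors, 6 lay above the median gene and 3 in the brightest 25%. Brightest among them were ONECUT1 at 9.90, ONECUT2 at 9.70 and NR0B2 at 9.48, and the dimmest was PROX1 at 4.70. HNF4A, CEBPA and ALB were not analysed here. Of the sympathetic neuroblast markers, 12 of 15 lay above the median gene and 8 in the brightest 25%, led by the catecholamine enzyme TH at 12.49, the microtubule regulator STMN2 at 11.08 and the homeodomain factor ISL1 at 10.15. The dimmest of them were the RNA-binding protein ELAVL4 at 3.28, the receptor RET at 4.56 and the granule protein CHGB at 5.66. Of 14 mesenchymal markers, 8 lay above the median gene and 5 in the brightest 25%. Vimentin VIM at 15.53 and the factors TWIST1 at 13.32 and ZEB2 at 10.45 were the brightest. At the dim end were the factors ZEB1 at 3.89, PRRX1 at 5.39 and SNAI2 at 5.72, and the list's median was 6.87. Of 11 epithelial markers 4 lay above the median gene and 0 in the brightest 25%, and the keratins KRT8 and KRT18 were not analysed here. The counts above the median gene were 6 of 7 for endothelial, 3 of 8 for leukocyte and 2 of 6 for pluripotent markers. In the brightest 25% lay 2 endothelial, 2 leukocyte and 2 pluripotent markers. No gene of the marker lists passed the adjusted test in limma with any agent. Because brightness depends on the probe, these counts describe the signals and do not settle the cells' identity, which was not tested. The cells are called by their label below.

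As a group, the factors were placed like the table as a whole. The median member lay at 6.58, 34 of 71 members lay above the median gene, and 16 lay in the brightest 25%, against 14 in the dimmest 25%. Their means ran from 3.75 for SOX5, a cartilage and neural SOX factor, to 13.81 for LHX2. Of the 16 in the brightest 25%, 12 were HOX genes. The others were LHX2, GATA1, SOX7 and PAX1.

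**Figure D1:**
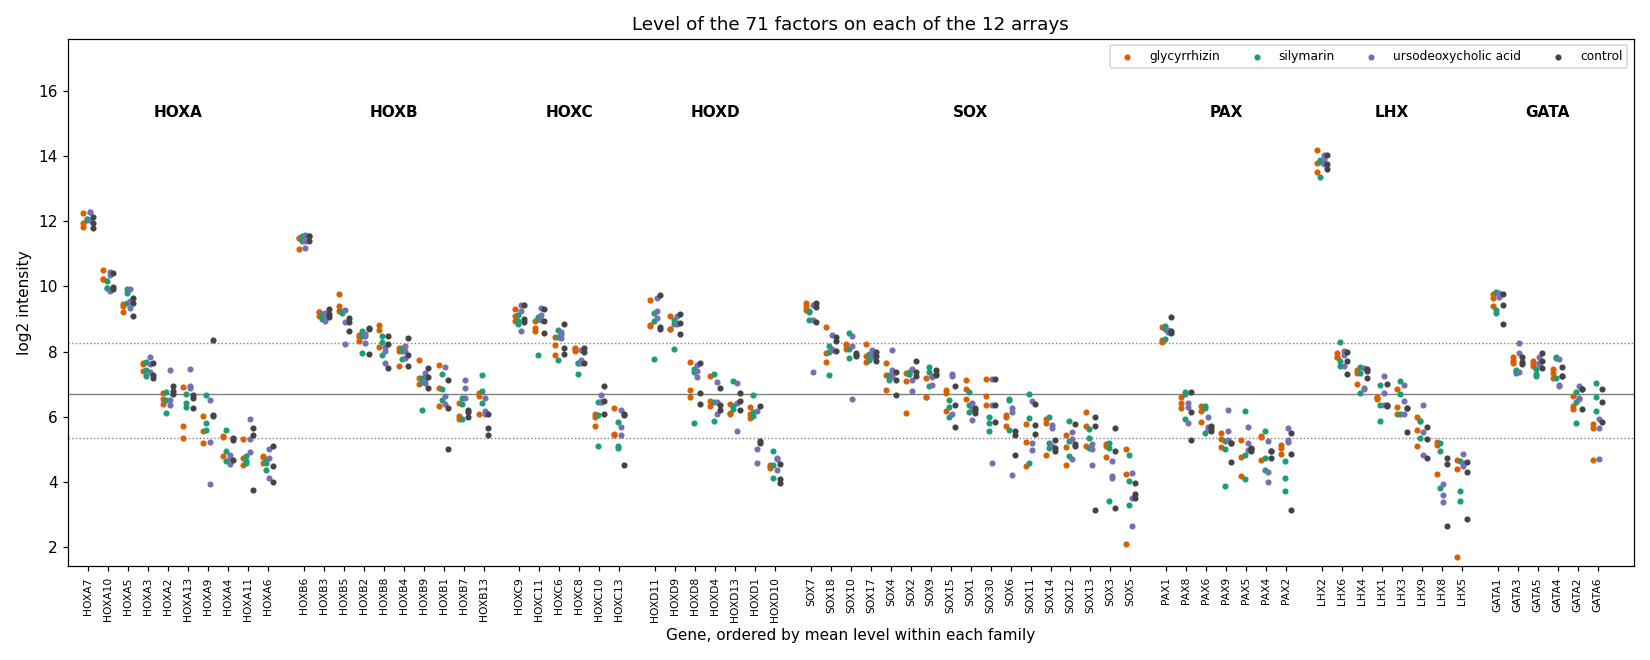
Log2 intensity (y axis) of each of the 71 factors (x axis, grouped by family and ordered by mean level) on all 12 arrays, with glycyrrhizin, silymarin, ursodeoxycholic acid and control as coloured points from left to right. The solid line is the median gene at 6.70 and the dotted lines bound the dimmest and brightest 25% of genes at 5.35 and 8.27. The groups lie on top of each other for bright genes such as LHX2, and the points spread out for dim ones such as SOX5.

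LHX2, a regulator of the eye, the forebrain and hair follicle stem cells gave the brightest signal of the set. Its single probe read 13.52, 14.18 and 13.78 with glycyrrhizin, 13.36, 13.83 and 13.87 with silymarin, 14.05, 13.90 and 13.76 with ursodeoxycholic acid and 13.76, 14.04 and 13.61 in control. These values place it above 98.7% of genes, and the 4 groups overlapped. HOXA7, a trunk patterning gene, read 12.26, 11.81 and 11.95 with glycyrrhizin, 12.07, 12.08 and 12.04 with silymarin, 12.28, 12.04 and 12.30 with ursodeoxycholic acid and 11.78, 11.93 and 12.13 in control. HOXB6, which acts in the trunk and limb, read 11.47, 11.48 and 11.14 with glycyrrhizin, 11.39, 11.53 and 11.46 with silymarin, 11.58, 11.18 and 11.39 with ursodeoxycholic acid and 11.56, 11.53 and 11.40 in control. HOXA7 and HOXB6 lay above 96.4% and 95% of genes, and again no group stood apart from the others. HOXA10, a posterior gene of the uterus and limb, averaged 10.16 over the 12 arrays (range 9.87 to 10.50).

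Of the 71 factors, 41 have a promoter in the RefSeq table of build GRCh38.p14, reaching 250 bases before to 50 bases after the gene's start. Shown here are the promoters of the brightest member, of a bright and a dim neighbour in the HOXA cluster (HOXA7 and HOXA6), and of GATA6, which recurs among the lowest p-values below. They lie at chr9:124011518-124011817 on the plus strand (LHX2), chr7:27156626-27156925 on the minus strand (HOXA7), chr7:27147725-27148024 on the minus strand (HOXA6) and chr18:22169339-22169638 on the plus strand (GATA6). Capitals mark CG dinucleotides, the sites of DNA methylation, and each sequence is written in the direction of transcription.
LHX2: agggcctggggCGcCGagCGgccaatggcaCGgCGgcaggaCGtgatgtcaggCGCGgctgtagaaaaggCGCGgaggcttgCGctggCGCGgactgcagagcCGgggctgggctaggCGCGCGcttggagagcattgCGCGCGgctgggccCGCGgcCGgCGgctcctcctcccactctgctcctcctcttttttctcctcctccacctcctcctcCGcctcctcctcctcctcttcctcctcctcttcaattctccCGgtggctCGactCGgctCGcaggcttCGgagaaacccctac
HOXA7: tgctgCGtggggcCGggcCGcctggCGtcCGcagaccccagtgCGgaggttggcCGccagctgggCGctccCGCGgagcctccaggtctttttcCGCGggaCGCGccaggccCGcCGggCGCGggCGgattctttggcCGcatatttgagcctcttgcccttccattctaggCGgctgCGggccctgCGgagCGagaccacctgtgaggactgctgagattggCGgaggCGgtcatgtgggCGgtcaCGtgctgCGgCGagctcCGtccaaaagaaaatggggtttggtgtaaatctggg
HOXA6: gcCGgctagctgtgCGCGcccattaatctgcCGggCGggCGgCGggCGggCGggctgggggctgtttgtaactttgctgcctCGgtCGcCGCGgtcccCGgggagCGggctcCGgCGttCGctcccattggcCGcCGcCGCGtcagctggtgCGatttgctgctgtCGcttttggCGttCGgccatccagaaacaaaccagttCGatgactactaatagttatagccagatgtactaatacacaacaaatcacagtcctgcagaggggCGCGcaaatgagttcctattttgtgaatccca
GATA6: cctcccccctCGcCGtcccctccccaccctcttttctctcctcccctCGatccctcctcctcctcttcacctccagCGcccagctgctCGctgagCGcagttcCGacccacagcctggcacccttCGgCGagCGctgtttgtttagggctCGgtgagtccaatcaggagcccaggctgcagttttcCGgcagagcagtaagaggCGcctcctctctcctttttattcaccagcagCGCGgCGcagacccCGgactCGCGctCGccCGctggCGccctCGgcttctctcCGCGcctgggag
The CG counts were 30 for LHX2, 31 for HOXA7, 29 for HOXA6 and 25 for GATA6. Over the 41 members the median was 23 CG per promoter, against 24 over 11150 promoters of genes on the table. The 13 members above the median gene had a median of 21 and the 28 below it 23.5. Every HOXC gene and every HOXB gene but HOXB1 lacked a promoter here, so these medians leave them out. Searched on both strands, the homeodomain core TAATTA was found in 1 of 41 member promoters (2.44%, against 2.66% of all those promoters), the GATA motif AGATAA in 0 (0% against 6.83%) and the SOX motif AACAAT in 3 (7.32% against 6.35%). None of the 3 motifs occurs in the 4 promoters shown. These counts describe letters in a short window, not bound sites. Bright and dim refer to probe signals, and a relation of CG count with level was not tested.

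Among the HOX genes, 19 of 33 lay above the median gene. The count was 8 of 10 in the HOXB cluster, 4 of 6 in HOXC, 4 of 10 in HOXA and 3 of 7 in HOXD. Bright HOXB genes were HOXB6, the hindbrain gene HOXB3 at 9.13 and HOXB5, which acts in the trunk and the enteric nervous system, at 9.08. In HOXA the lung and neck gene HOXA5 averaged 9.52. In HOXC, HOXC9, which patterns thoracic motor neurons, averaged 9.07 and the posterior gene HOXC11 8.87. In HOXD, the limb genes HOXD11 and HOXD9 averaged 9.02 and 8.81. The terminal genes, which pattern the hindmost structures, were read below the median gene, HOXA13 at 6.51, HOXB13 at 6.33, HOXC13 at 5.59 and HOXD13 at 6.39.

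Levels were also set beside the position of a gene in its cluster, as a description of the probes' signals. By paralogue number, 4 of 6 HOX genes numbered 1 to 3 lay above the median gene, 9 of 13 numbered 4 to 8 and 6 of 14 numbered 9 to 13. Across the 33 genes, which share arrays and are not independent, Spearman's rho of level with paralogue number was −0.17. Measured neighbours lay a median of 2.34 log2 units apart over 29 pairs, and the widest gap, 7.46, was between HOXA6 at 4.60 and HOXA7. Such gaps, and the rho, mix the probes' binding with the transcripts' amounts, so neither a relation nor its absence can be read from them. Of the 8 members with more than 1 probe, 6 had probes over 1 log2 unit apart: PAX1 (3.99), HOXA7 (3.81), HOXC9 (3.61), HOXB3 (3.49), GATA3 (2.66) and SOX6 (1.26). The dimmer probe read 4.63 for PAX1, 8.24 for HOXA7, 5.46 for HOXC9 and 5.63 for HOXB3, so the place of these 4 genes in the brightest 25% rests on 1 of their 2 probes.

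**Figure D2:**
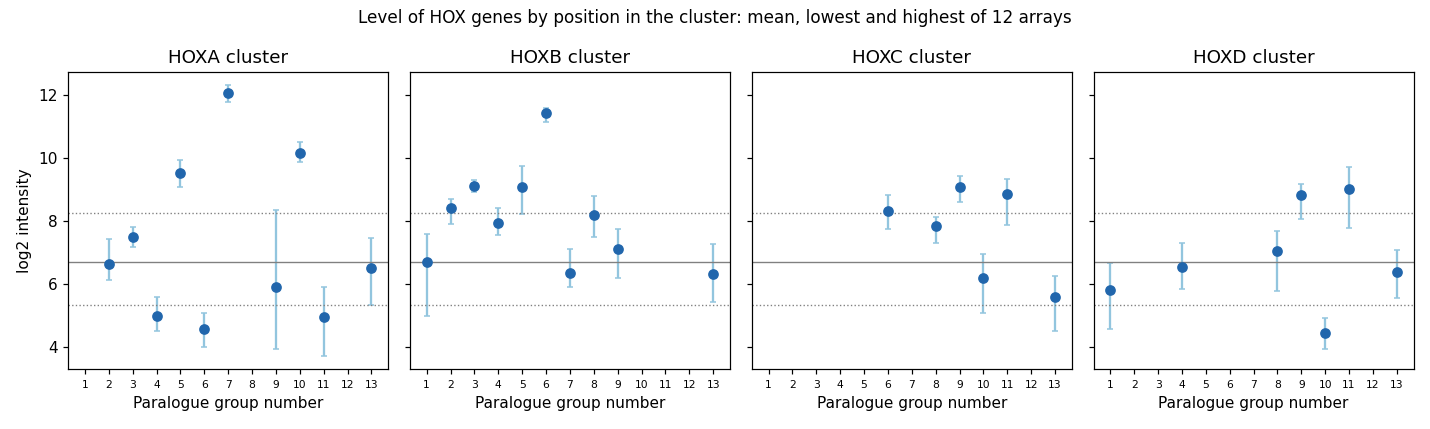
Mean log2 intensity (points) of the 33 measured HOX genes against paralogue group number in each of the 4 clusters, with bars from the lowest to the highest of 12 arrays. Lines mark the median gene (solid) and the bounds of the dimmest and brightest 25% of genes (dotted). Bright and dim genes lie side by side in the clusters, as with HOXA6 at 4.60 beside HOXA7 at 12.06.

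Factors with known lineage roles fell on both sides of the median gene. Of the endoderm factors, GATA4 averaged 7.38 (above 62% of genes), GATA5 7.60, SOX17 7.89 and GATA6 5.94 (above 36%). The bile duct and cartilage factor SOX9 averaged 7.14. Of the neuroblast factors, GATA3 averaged 7.67 and GATA2 6.52, while SOX11, a SOX factor of immature neurons, averaged 5.58 and its relative SOX4 7.28. The neural crest factor SOX10 averaged 7.99 with a range of 6.53 to 8.58. GATA1, the erythroid factor, was the brightest GATA gene at 9.53 (range 8.85 to 9.83). The endothelial SOX factors SOX7 and SOX18 averaged 9.09 and 8.10. SOX2 averaged 7.19.

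The PAX genes were the dimmest family, with 1 of 7 above the median gene. That gene was PAX1, a factor of the vertebral column and the thymus, at 8.62. The kidney factors PAX8 and PAX2 averaged 6.28 and 4.76, the eye factor PAX6 5.89 and the B cell factor PAX5 5.01. Among the LHX genes 3 of 8 lay above the median gene, LHX2, the interneuron factor LHX6 at 7.80 and the motor neuron and pituitary factor LHX4 at 7.21. The forebrain factors LHX8 and LHX5 averaged 4.29 and 4.01. For SOX genes the count was 7 of 17, and for GATA genes 4 of 6.

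The other HOX genes lay on both sides of the median gene. The hindbrain gene HOXB2 averaged 8.41 (range 7.91 to 8.71), HOXC6, a gene of the forelimb level, 8.32 (7.75 to 8.84), HOXB8 8.19 (7.49 to 8.80) and HOXB4, which acts in blood stem cells, 7.95 (7.56 to 8.41). HOXA3, a gene of the throat pouches that form thymus and parathyroid, averaged 7.50 (7.20 to 7.82), HOXB9 7.13 (6.21 to 7.75) and HOXD8 7.06 (5.80 to 7.69). All 7 lay above the median gene. Below it lay HOXA2, a gene of the hindbrain and jaw arches, at 6.65 (6.12 to 7.44), HOXD4 at 6.56 (5.86 to 7.31), HOXA4 at 5.01 (4.53 to 5.60), the limb and kidney gene HOXA11 at 4.96 (3.74 to 5.92) and the hindlimb gene HOXD10 at 4.45 (3.95 to 4.95).

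The remaining members of the other families were all read below the median gene. LHX1, a factor of the kidney and the head organizer, averaged 6.58 (range 5.87 to 7.24) and the gonadal factor LHX9 5.51 (4.73 to 6.34). PAX4, a factor of pancreatic islets, averaged 4.86 (4.01 to 5.57). Among SOX genes, SOX15 averaged 6.51 (5.67 to 7.32), the testis factor SOX30 6.25 (4.59 to 7.16), SOX14 5.38 (4.82 to 6.0), SOX12 5.20 (4.50 to 5.87), SOX13 5.20 (3.13 to 6.13) and the neural progenitor factor SOX3 4.62 (3.21 to 5.64). The spread of SOX13, SOX30 and SOX3 between arrays exceeded 2 log2 units.

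Partners and regulators of the factors were read from lists. MEIS2, a homeodomain partner of HOX proteins, averaged 13.95 and the partner PBX3 11.72, and 3 of 6 measured HOX cofactors lay above the median gene. LMO4, a LIM-only protein that competes with LHX proteins for the adaptor LDB1, averaged 12.99, and LDB1 itself 8.46. The Polycomb repressor subunits SUZ12 and EZH2, which silence HOX clusters, averaged 13.57 and 13.14, and 14 of 18 Polycomb and MLL genes lay above the median gene. Retinoic acid activates HOX genes in order along a cluster. Of its pathway, the degrading enzyme CYP26B1 averaged 12.64 and the receptor RARG 10.62, and 7 of 13 genes lay above the median gene.

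**Figure D3:**
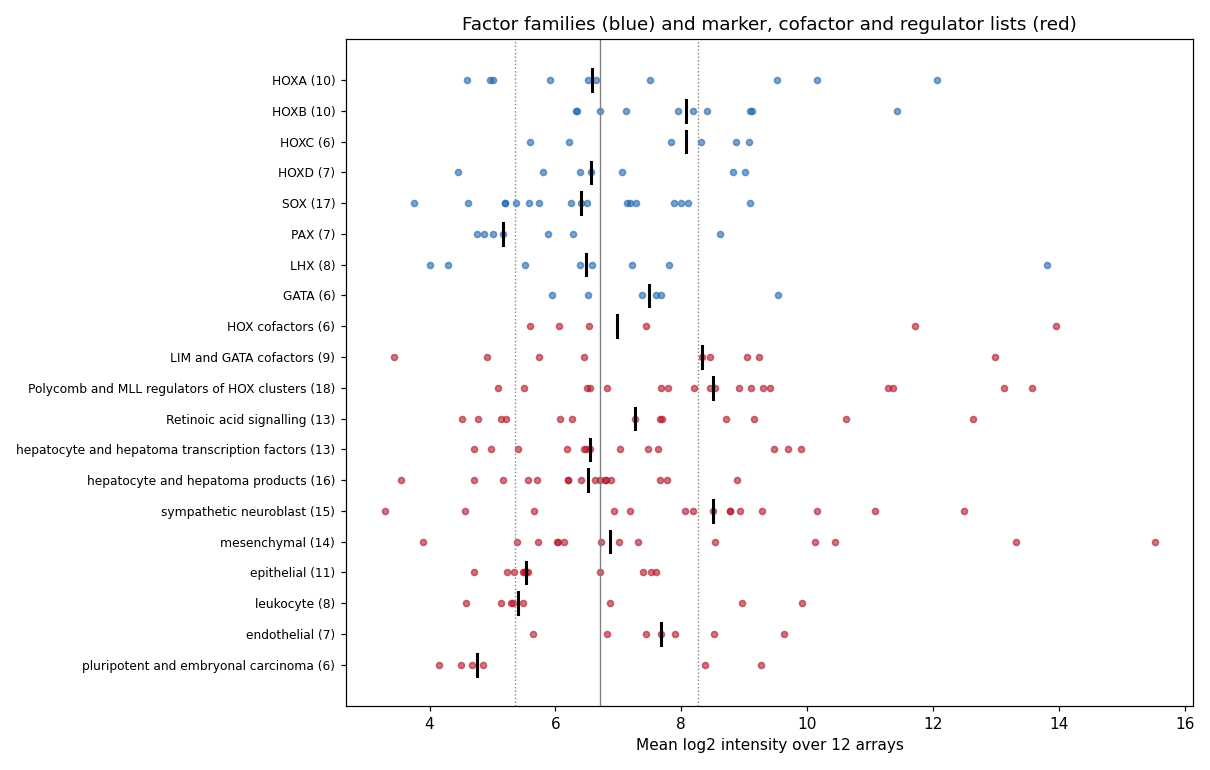
Mean log2 intensity over 12 arrays (x axis) of each gene (points) in the 8 factor families (blue) and in lists of partners, regulators and cell type markers (red), with the number of genes in brackets and the median of each row as a black bar. Lines mark the median gene (solid) and the bounds of the dimmest and brightest 25% (dotted). The Polycomb and neuroblast lists have medians of 8.50 and 8.50, and the PAX family one of 5.17.

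The spread between arrays set what could be seen. The residual SD within groups had a median of 0.29 for the 16 members in the brightest 25% and 0.62 for the 14 in the dimmest 25%, against 0.24 and 0.67 over all genes of the same brightness. HOXB3 had the lowest residual SD, 0.11, and LHX5 and HOXA9 the highest, 1.0 and 0.99. Over all 12 arrays 22 members varied by less than 1 log2 unit and 19 by more than 2. The median range was 1.44 for the members and 1.49 for all genes.

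Each agent was then set against the same 3 control arrays. No factor passed the test with glycyrrhizin, and the share of low p-values was near that of the whole table. At an adjusted p under 0.05, with Benjamini-Hochberg adjustment over all 13881 genes, 0 of 71 factors passed (lowest adjusted p = 0.736 in limma), against 0.0072% of all genes. Before adjustment, a p under 0.05 was found for 5 members (7.04%, against 5.71% of all genes), 3 of them higher (background 2.46%) and 2 lower (background 3.24%). That count was 1 without control replicate 2, 2 without control replicate 3 or glycyrrhizin replicate 3, and 3 without control replicate 1. GATA6, a factor of endoderm and heart, read 5.66, 5.77 and 4.66 with glycyrrhizin and 6.45, 5.83 and 6.85 in control (log2 difference −1.01, SE 0.42, adjusted p = 0.798 in limma). All 3 glycyrrhizin arrays lay below the control arrays, although the difference was −0.66 without glycyrrhizin replicate 3. SOX9 read 7.17, 6.59 and 6.62 with glycyrrhizin and 7.27, 7.32 and 7.44 in control, again without overlap (log2 difference −0.55, SE 0.22, adjusted p = 0.797 in limma). SOX1, a factor of early neural tissue, read 7.14, 6.85 and 6.55 with glycyrrhizin and 6.22, 6.10 and 6.28 in control (log2 difference 0.65, SE 0.23, adjusted p = 0.736 in limma). HOXB5 read 9.24, 9.39 and 9.76 with glycyrrhizin and 8.91, 8.64 and 9.03 in control (log2 difference 0.60, SE 0.27, adjusted p = 0.858 in limma). For SOX1 and HOXB5 all glycyrrhizin arrays lay above all control arrays. HOXB13, a factor of prostate and tail, read 6.09, 6.65 and 6.74 with glycyrrhizin and 6.09, 5.45 and 5.64 in control (log2 difference 0.77, SE 0.29, adjusted p = 0.738 in limma), with 2 of 3 arrays above all of control. SOX2 differed by −0.60, or by −0.24 without glycyrrhizin replicate 3. With an offset of 50 added before the log, which shrinks differences of dim genes, the difference was 0.42 for SOX1, 0.44 for HOXB13 and −0.54 for GATA6. Arrays of the groups did not overlap for 7 members, while 12.7% of all genes showed such a gap. The median difference was 0.089 over the members and 0.021 over all genes, and 45 of 71 members (63.4%) lay above zero against 52.5% of genes.

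No factor passed the test with silymarin, and the count of members with a low p varied with the arrays kept. After adjustment, 0 of 71 factors passed (lowest adjusted p = 0.801 in limma), against 0% of all genes. The unadjusted p was under 0.05 for 1 member (1.41%, against 5.24% of all genes), 1 of them higher (background 3.05%) and 0 lower (background 2.19%). Leaving out 1 array changed the count to 2 without control replicate 1, silymarin replicate 2, silymarin replicate 3 or ursodeoxycholic acid replicate 1, 3 without silymarin replicate 1, and 4 without control replicate 2 or control replicate 3. The lowest p belonged to HOXB13, which read 7.28, 6.80 and 6.41 with silymarin and 6.09, 5.45 and 5.64 in control (log2 difference 1.10, SE 0.29, adjusted p = 0.801 in limma). The groups did not overlap, and all 3 control arrays lay below the median gene. SOX6, which acts in cartilage and red blood cells, read 6.50, 6.55 and 5.59 with silymarin and 4.82, 5.45 and 5.57 in control (log2 difference 0.93, SE 0.50, adjusted p = 0.932 in limma), but differed by 0.10 when its 2 probes were averaged. GATA5, an endoderm and heart factor, read 7.31, 7.26 and 7.47 with silymarin and 7.96, 7.51 and 7.70 in control (log2 difference −0.37, SE 0.18, adjusted p = 0.931 in limma), without overlap. The trunk and limb genes HOXC8 and HOXC10 differed by −0.38 and −0.63. The HOXC10 value was −0.24 without silymarin replicate 2 and −0.41 without control replicate 2. LHX3, a pituitary and motor neuron factor, differed by 0.61, by 0.36 without control replicate 3 and by 0.37 without silymarin replicate 1. The offset of 50 gave 0.67 for HOXB13, 0.49 for SOX6, 0.38 for LHX3 and −0.36 for HOXC10. Arrays of the groups did not overlap for 5 members, while 10.8% of all genes showed such a gap. The median difference was −0.023 over the members and 0.018 over all genes, and 32 of 71 members (45.1%) lay above zero against 52.3% of genes.

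No factor passed the test with ursodeoxycholic acid. By adjusted p, 0 of 71 factors passed (lowest adjusted p = 0.76 in limma), against 0% of all genes. An unadjusted p under 0.05 came from 3 members (4.23%, against 5.55% of all genes), 1 of them higher (background 2.81%) and 2 lower (background 2.74%). The number became 1 without glycyrrhizin replicate 1, silymarin replicate 3 or ursodeoxycholic acid replicate 2. HOXB7, a trunk patterning gene, read 7.13, 6.58 and 6.88 with ursodeoxycholic acid and 6.22, 6.15 and 5.98 in control (log2 difference 0.75, SE 0.24, adjusted p = 0.76 in limma), and the groups did not overlap. GATA6 read 5.92, 5.65 and 4.71 with ursodeoxycholic acid, against 6.45, 5.83 and 6.85 in control (log2 difference −0.95, SE 0.42, adjusted p = 0.893 in limma), with 2 of 3 arrays below all control arrays. Without ursodeoxycholic acid replicate 3 it differed by −0.60. HOXA9, a factor of blood progenitors, read 6.51, 5.24 and 3.95 with ursodeoxycholic acid and 8.37, 6.02 and 6.06 in control (log2 difference −1.58, SE 0.72, adjusted p = 0.893 in limma). Control replicate 1 was the highest of the 12 arrays for this gene, and without it the difference was −0.81. Without ursodeoxycholic acid replicate 3 it was −0.94. PAX9, a factor of teeth and the vertebral column, read 6.19, 5.29 and 5.56 with ursodeoxycholic acid and 4.60, 5.18 and 5.21 in control, a difference of 0.69 without overlap, or of 0.43 without ursodeoxycholic acid replicate 1. SOX7 differed by −0.66, by −0.051 without ursodeoxycholic acid replicate 1 and by −1.08 without replicate 3. With the offset of 50 the differences were 0.48 for HOXB7, −0.51 for GATA6, −0.88 for HOXA9, 0.31 for HOXB13 and 0.31 for PAX9. Arrays of the groups did not overlap for 4 members, while 9.5% of all genes showed such a gap. The median difference was 0.042 over the members and 0.02 over all genes, and 39 of 71 members (54.9%) lay above zero against 52.3% of genes.

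**Figure D4:**
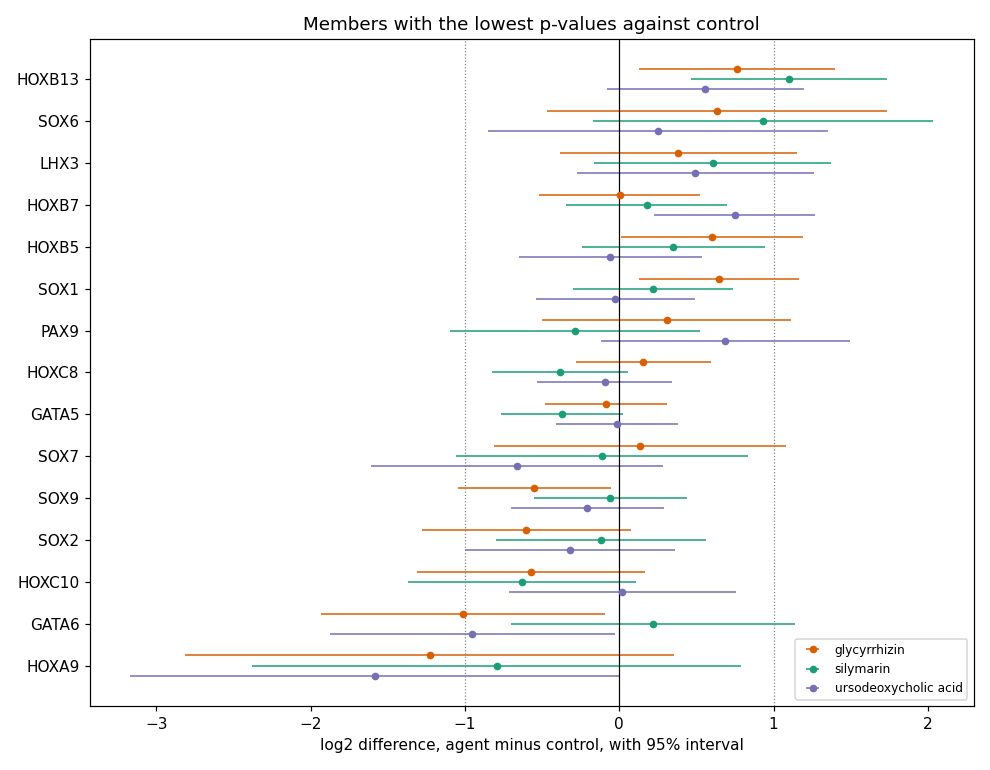
Log2 difference of each agent from control (points) with its 95% interval (bars) for the 15 factors named in those comparisons, ordered by the mean of the 3 agents, with dotted lines at a 2-fold difference. Most intervals span zero, and none of the 15 passed the adjusted threshold with any agent.

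No factor passed when the mean of the 3 agents was set against control. Once adjusted, 0 of 71 factors passed (lowest adjusted p = 0.834 in limma), against 0% of all genes. Unadjusted p-values under 0.05 were those of 1 member (1.41%, against 4.56% of all genes), 1 of them higher (background 2.74%) and 0 lower (background 1.82%). With an array left out the count was 2 without control replicate 1, control replicate 2, silymarin replicate 1 or ursodeoxycholic acid replicate 2, and 3 without control replicate 3 or ursodeoxycholic acid replicate 1. The lowest p was that of HOXB13, which differed by 0.77 with glycyrrhizin, 1.10 with silymarin and 0.56 with ursodeoxycholic acid (log2 difference 0.81, SE 0.23, adjusted p = 0.834 in limma for the mean). All 3 values were taken against the same control arrays, of which replicates 2 and 3 were the lowest of the 12, and 7 of 9 treated arrays lay above all of control. HOXA9 differed by −1.20, or by −0.43 without control replicate 1. HOXB1, the first gene of its cluster and a hindbrain factor, differed by 0.76. That value was 0.20 without control replicate 1 and 1.26 without control replicate 3. GATA6 differed by −0.58, with −1.01 for glycyrrhizin, 0.22 for silymarin and −0.95 for ursodeoxycholic acid, and by −0.34 without control replicate 3. LHX3 differed by 0.49, by 0.25 without control replicate 3, and SOX9 by −0.27. After the offset of 50 came 0.48 for HOXB13, 0.44 for HOXB1, 0.30 for LHX3, −0.75 for HOXA9 and −0.30 for GATA6. The arrays of the groups overlapped for every member (0 without overlap, 0.792% of all genes). The median difference was 0.037 over the members and 0.0075 over all genes, and 42 of 71 members (59.2%) lay above zero against 51.1% of genes.

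The agents were also set against each other in 3 pairs, and no factor passed between glycyrrhizin and silymarin. At the same adjusted threshold, 0 of 71 factors passed (lowest adjusted p = 0.327 in limma), against 0.0504% of all genes. The same threshold without adjustment held 2 members (2.82%, against 9.86% of all genes), 1 of them higher (background 3.75%) and 1 lower (background 6.11%). Here the count was 1 without silymarin replicate 2, and 4 without glycyrrhizin replicate 2. GATA6 read 5.66, 5.77 and 4.66 with glycyrrhizin and 6.17, 7.03 and 6.59 with silymarin, without overlap (log2 difference −1.23, SE 0.42, adjusted p = 0.327 in limma). HOXC8 read 8.12, 8.08 and 8.0 with glycyrrhizin and 7.30, 7.64 and 7.65 with silymarin (log2 difference 0.54, SE 0.20, adjusted p = 0.373 in limma), with every glycyrrhizin array higher. SOX9 differed by −0.49, SOX1 by 0.43 (0.28 without glycyrrhizin replicate 1), PAX2 by 0.86 and HOXA5 by −0.37. The offset of 50 reduced the sizes here to −0.68 for GATA6, 0.28 for SOX1 and 0.27 for PAX2, and an offset of 16 gave 0.50 for PAX2. Arrays of the groups did not overlap for 9 members, while 18.2% of all genes showed such a gap.

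No factor passed the test between glycyrrhizin and ursodeoxycholic acid. By adjusted p for this pair, 0 of 71 factors passed (lowest adjusted p = 0.854 in limma), against 0% of all genes. Without adjustment the threshold took in 5 members (7.04%, against 5.09% of all genes), 3 of them higher (background 2.68%) and 2 lower (background 2.41%). This unadjusted count was 3 without glycyrrhizin replicate 2 or ursodeoxycholic acid replicate 2. HOXB7 read 5.93, 6.02 and 6.41 with glycyrrhizin and 7.13, 6.58 and 6.88 with ursodeoxycholic acid (log2 difference −0.75, SE 0.24, adjusted p = 0.854 in limma). HOXA13, a gene of the distal limb, read 5.73, 6.91 and 5.35 with glycyrrhizin and 7.46, 6.88 and 6.95 with ursodeoxycholic acid (log2 difference −1.10, SE 0.36, adjusted p = 0.854 in limma). The HOXB7 arrays did not overlap, and those of HOXA13 overlapped at 1 glycyrrhizin array. SOX1 differed by 0.67, HOXB5 by 0.66 (0.37 without ursodeoxycholic acid replicate 2), HOXC10 by −0.59 and the dim LHX8 by 1.24. Under the offset of 50 they were −0.48 for HOXB7, −0.68 for HOXA13, 0.43 for SOX1, 0.36 for LHX8 and −0.36 for HOXC10, and an offset of 16 gave 0.68 for LHX8. Arrays of the groups did not overlap for 7 members, while 11.6% of all genes showed such a gap.

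No factor passed the test between ursodeoxycholic acid and silymarin. In this pair 0 of 71 factors passed (lowest adjusted p = 0.513 in limma), against 0.0504% of all genes. Unadjusted, it took in 5 members (7.04%, against 8.52% of all genes), 3 of them higher (background 3.49%) and 2 lower (background 5.03%). The number of such members was 0 without silymarin replicate 2, and 3 without ursodeoxycholic acid replicate 2. GATA6 read 5.92, 5.65 and 4.71 with ursodeoxycholic acid and 6.17, 7.03 and 6.59 with silymarin (log2 difference −1.17, SE 0.42, adjusted p = 0.513 in limma), without overlap. PAX9 read 6.19, 5.29 and 5.56 with ursodeoxycholic acid and 5.0, 3.88 and 5.24 with silymarin (log2 difference 0.98, SE 0.37, adjusted p = 0.538 in limma), and differed by 0.56 without silymarin replicate 2. PAX2 read 5.22, 5.65 and 5.29 with ursodeoxycholic acid and 3.71, 4.11 and 4.63 with silymarin (log2 difference 1.23, SE 0.49, adjusted p = 0.55 in limma), all in the dimmer part of the table. HOXD1, an anterior HOX gene, differed by −1.03. HOXB7 differed by 0.57, or by 0.38 without silymarin replicate 2 and 0.37 with arrays weighted by their quality, and HOXB13 by −0.54, or by −0.32 without silymarin replicate 1. For this pair the offset of 50 gave −0.65 for GATA6, 0.40 for PAX9, 0.43 for PAX2, −0.50 for HOXD1, 0.37 for HOXB7 and −0.36 for HOXB13, and an offset of 16 gave 0.76 for PAX2. Arrays of the groups did not overlap for 6 members, while 14.7% of all genes showed such a gap. The 3 pairs and the comparisons with control share arrays, so a gene that recurs among them is not counted as separate evidence.

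**Figure D5:**
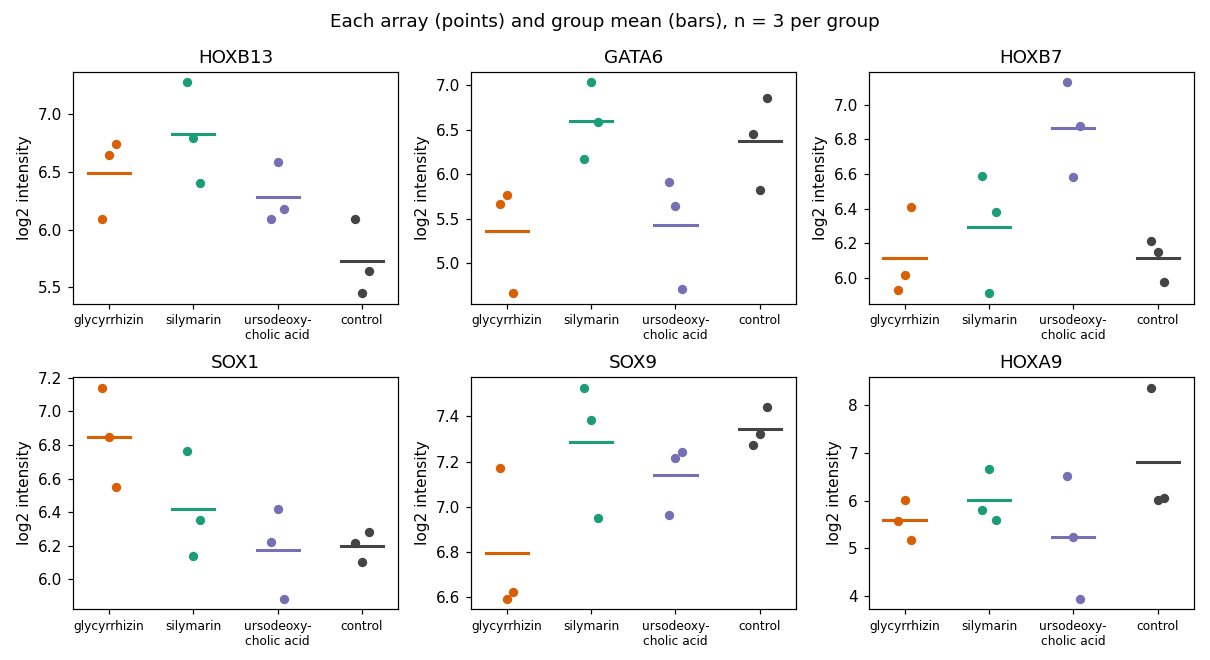
Log2 intensity (y axis, a separate scale for each gene) of HOXB13, GATA6, HOXB7, SOX1, SOX9 and HOXA9 on each array (points) with the group mean (bars), 3 arrays per group. GATA6 lies lower with glycyrrhizin and ursodeoxycholic acid than with silymarin, and the control mean of HOXA9 is raised by the array at 8.37.

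The 95% intervals, each for 1 gene and not adjusted for the number of genes or agents, describe the precision of these arrays. They rest on the same array-to-array spread, which may be only technical. For glycyrrhizin 33 of 71 members had an interval lying wholly inside a 2-fold change in either direction, for silymarin 42 and for ursodeoxycholic acid 40. This held with all 3 agents for 27 members, LHX2, HOXA7, HOXB6, HOXA10 and HOXB3 among them, and with no agent for 24. The same counts over all genes are not given here, so these are no result about the factors as a set. LHX2 differed from control by 0.021 with glycyrrhizin (interval −0.49 to 0.53), −0.12 with silymarin (−0.63 to 0.40) and 0.10 with ursodeoxycholic acid (−0.41 to 0.61). HOXA7 differed by 0.059 (−0.35 to 0.47), 0.12 (−0.29 to 0.53) and 0.26 (−0.15 to 0.67) in the same order. HOXB3, the least variable member, averaged 9.17 ± 0.07 with glycyrrhizin, 9.09 ± 0.091 with silymarin, 9.08 ± 0.13 with ursodeoxycholic acid and 9.17 ± 0.12 in control (SD, n = 3 each). The distance from the estimate to either end of the interval ran from 0.36 to 1.59 log2 units, with a median of 0.68. In bulk RNA such as this, fewer cells of a type and less RNA per cell cannot be told apart.

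No listed partner or regulator passed the test with any agent either. Of 18 Polycomb and MLL genes, 6 HOX cofactors, 9 LIM and GATA cofactors and 13 retinoic acid genes, 0 passed in any of the 3 comparisons with control. At an unadjusted p under 0.05 the Polycomb list held 1 gene with silymarin and 1 with ursodeoxycholic acid, in both cases BMI1, a subunit of Polycomb repressive complex 1, while 5.24% and 5.55% of all genes lay under it with these agents. BMI1 averaged 7.15 with silymarin and 6.93 with ursodeoxycholic acid, against 5.86 in control (limma adjusted p = 0.886 and 0.893). In the retinoic acid list the aldehyde dehydrogenase ALDH1A1 and the receptor RXRG lay under that unadjusted p with silymarin, at log2 differences of −0.63 and 0.84 (limma adjusted p = 0.931 for both), 2 of 13 genes against the same 5.24% of all genes. EZH2 differed by 0.41 with glycyrrhizin and 0.33 with ursodeoxycholic acid, LMO4 by 0.43 and MEIS2 by −0.26 with silymarin. The median differences of the Polycomb list were 0.035, 0.10 and 0.032 with glycyrrhizin, silymarin and ursodeoxycholic acid, against 0.021, 0.018 and 0.02 over all genes.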

How the data were processed

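Linear intensities, 1 for each probe on each array and with array medians close together, were deposited by the authors. Limma is named in the submitters' processing notes. Its steps and any background correction are not given here. The table held 27561 probes, of which 15650 had 1 gene symbol in the platform annotation, 0 several and 11911 none. Older symbols were updated through RefSeq (2355 probes), leaving 13881 genes. A gene was read by the probe with the highest mean log2 intensity. Log2 values, taken here from the deposited intensities, entered lmFit and eBayes of limma 3.58.1 under R 4.3.3 (1 mean per group over 12 arrays, 8 residual and 2.71 prior degrees of freedom), two-sided, with Benjamini-Hochberg adjustment over all genes at 0.05, for 7 comparisons. The number of arrays limits the precision. Members, lists and tests were chosen with earlier results of these data known. Named in each comparison were members at an unadjusted p under 0.05 and at least the 3 smallest p-values in each direction. For levels they were the 12 brightest members, the brightest of each family and members with textbook lineage roles, of which PAX3 was not analysed here. List genes named were drawn from the 3 brightest of a list or its smallest p-values, but not all of these are named. No measured gene is named from the epithelial, endothelial, leukocyte and pluripotent lists, and no differences are given for marker genes. LDB1, AFP, the dimmest markers and the stated missing genes were chosen after their values were seen. Alternatives were the replicate number as a block, quantile normalization of the log2 values and offsets of 16 and 50 before the log. Others were leaving out the dimmer 50% of genes, averaging probes, a variance trend, array weights, the compared groups alone and leaving out each array. A variance prior over all probes was added after seeing the data.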

Additional observations from a re-analysis of the deposited data

How the results depend on the processing

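Under all 22 alternatives, 10 settings and 12 fits without 1 array, the count of changed factors was 0 in each of the 7 comparisons, with a lowest adjusted p of 0.135. The fit on the compared groups alone was not run for the mean of the agents, which uses all groups. The count of factors above the median gene ran from 33 to 34 without 1 array and from 33 to 35 under other settings. Counts at an unadjusted p under 0.05 moved more: 1 to 7 for glycyrrhizin against control; 1 to 5 for silymarin against control; 0 to 5 for ursodeoxycholic acid against control. They were 0 to 3 for the mean of the 3 agents against control, 1 to 4 for glycyrrhizin against silymarin, 1 to 7 for glycyrrhizin against ursodeoxycholic acid and 0 to 7 for ursodeoxycholic acid against silymarin. Leaving out the dimmer 50% of genes kept 34 factors. Over all genes, limma's calls ran from 0 to 17 for glycyrrhizin against control, 0 to 4 for silymarin against control, 0 to 20 for ursodeoxycholic acid against control, 0 to 3 for the mean of the 3 agents against control, 0 to 217 for glycyrrhizin against silymarin, 0 to 1 for glycyrrhizin against ursodeoxycholic acid and 0 to 32 for ursodeoxycholic acid against silymarin. Of 888 recomputed differences of named factors, 0 changed direction and 58 moved by over 1.5 times, 31 of these with the offset of 50, which by construction shrinks differences of dim genes. Of the calls over all genes, the highest count for glycyrrhizin against silymarin came with the variance trend. Those for ursodeoxycholic acid against control and against silymarin were highest without ursodeoxycholic acid replicate 3. The cause was not tested. With the replicate number as a block, 0 factors changed and 0 genes were called in any comparison. The labels do not say what a shared number means. Deviations of same-numbered arrays correlated at −0.19 to 0.15 (median 0.023) over 18 pairs, and those of other-numbered arrays at −0.23 to 0.27 (median −0.0052). Of 12 arrays, 5 were closest to their own number. No pairing by number was seen, but so few arrays cannot exclude one.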

Other observations

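Other families of developmental transcription factors, chosen after the data were seen, were read in the same way: NKX, IRX, DLX, MSX, OTX, EMX, CDX, MEOX, POU and TBX genes and the relatives of SIX2, 54 in all. Of these 29 lay above the median gene and 13 in the brightest 25%. NKX2-2, a factor of the ventral neural tube and pancreatic endocrine cells, gave the brightest signal at 12.15 (range 11.85 to 12.35 over 12 arrays). The kidney progenitor factor SIX2 averaged 10.19, the broadly expressed POU2F1 10.11 and the B cell factor POU2F2 9.94. MSX2, a factor of skull and limb, averaged 9.89. None of the 54 passed the adjusted threshold with any agent in limma, and 4 of 162 tests against control had an unadjusted p under 0.05. Of all genes 5.71% did with glycyrrhizin, 5.24% with silymarin and 5.55% with ursodeoxycholic acid, so the count is no result about these families. The 4 tests were IRX3 with silymarin, POU3F2 and OTX2 with ursodeoxycholic acid and TBX19 with glycyrrhizin. IRX3 averaged 9.07 with silymarin and 8.44 in control (limma adjusted p = 0.836), and the neural factor POU3F2 4.16 with ursodeoxycholic acid and 5.55 in control (limma adjusted p = 0.725). OTX2 differed by −0.70 and TBX19 by 0.48.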
